A study of Mus musculus with 24 samples.

Results

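The Mas-related G protein-coupled receptor genes Mrgpra3, Mrgprd, Mrgprb4, Mrgprb5, Mrgpre and Mrgprf of the mouse were followed through RNA-seq, m6A pulldown sequencing (MeRIP-seq) and single-base m6A mapping (miCLIP) of L4/5 dorsal root ganglia (DRG). They were chosen by name and made up 6 of the 24421 gene symbols of the RNA-seq table and 6 of the 24411 symbols of the MeRIP-seq table. Many receptors of this family, though not all, sit in the membrane of unmyelinated sensory neurons and couple to G proteins, and several of them turn contact with a chemical into itch or pain. Mrgpra3 is the chloroquine receptor and marks itch-sensing neurons, Mrgprd is the β-alanine receptor and marks nonpeptidergic nociceptors that end in the epidermis, and Mrgprb4 marks C-fibres that respond to stroking of the skin. Mrgprb5 is a close relative of Mrgprb4, and Mrgpre and Mrgprf are members without an established ligand.

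The RNA-seq groups were Mettl14cKO ganglia 1 day after sciatic nerve injury (SNLD1), Mettl14cKO naive ganglia, wild-type (WT) SNLD1 ganglia and WT naive ganglia, with 3 libraries each. All mice were C57BL/6, and the labels give the treatment as a sham operation or a crush of the sciatic nerve, without saying which of the naive libraries had the sham. Mettl14 encodes a subunit of the complex that writes N6-methyladenosine (m6A) into mRNA. The Cre driver, the age and the number of animals behind a library were not stated in the labels, so p-values measure the spread between libraries, which may be technical. MeRIP-seq was made from WT ganglia only, with 3 pulldown (IP) and 2 input libraries at SNLD1 and the same numbers in the naive state. miCLIP gave 1 list of sites from injured WT ganglia, named SNL, and 1 from naive WT ganglia.

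RNA-seq libraries held between 5707837 and 12639160 counts and MeRIP-seq libraries between 846785 and 19653733. Levels are given in CPM, the counts of a gene scaled to a common library total. Mettl14 itself was lower in every Mettl14cKO library than in every WT library of the same condition, with a mean of 15.5 ± 1.35 against 20.03 ± 0.654 CPM at SNLD1 and of 16.0 ± 2.48 against 23.4 ± 0.605 CPM in naive ganglia (SD, n = 3 each). Neither difference passed the test (edgeR quasi-likelihood test, log2 −0.36, adjusted p = 0.345 at SNLD1 and log2 −0.55, adjusted p = 0.316 in naive ganglia). With both conditions pooled, Mettl14 was lower by a small margin of the threshold (log2 −0.46 ± 0.12 SE, edgeR adjusted p = 0.0450), where 3.33% of all genes were called. Atf3, the transcription factor that marks injured sensory neurons, averaged 177 ± 17.6 CPM at SNLD1 against 16.3 ± 4.29 CPM in naive Mettl14cKO ganglia, and 375 ± 130.4 against 9.66 ± 1.31 CPM in WT ganglia. Summed pan-neuronal markers ranged from 12954 to 17779 CPM over the 12 libraries. Counts of Y-linked genes were absent or at 1 count in 5 RNA-seq libraries, spread over all 4 groups, and present in 7. The third IP library of each MeRIP-seq condition counted Mrgpra6, another gene of the family, at 132 counts at SNLD1 and 110 counts in the naive state, whereas the other 8 libraries had 2 counts at most.

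All 6 genes lie on chromosome 7 (GRCm38.p6). Mrgpra3 spans 47588950 to 47601372, Mrgprb5 spans 48168017 to 48168985 and Mrgprb4 spans 48198213 to 48199178, so that 29228 bases separate both b-type genes. Mrgpre spans 143778363 to 143784500. Mrgprf (145300909 to 145309557) and Mrgprd (145314835 to 145324059) are neighbours, 5278 bases apart. The start regions of Mrgprb4 and Mrgprb5 are shown so that these close relatives can be compared base by base; most of each window lies before the gene span. The sequences run from 250 bases before to 50 bases after the annotated start on the minus strand, chr7:48199129-48199428 for Mrgprb4 and chr7:48168936-48169235 for Mrgprb5, both from RefSeq (GRCm38.p6), with capitals at the bases that differ between them.
Mrgprb4: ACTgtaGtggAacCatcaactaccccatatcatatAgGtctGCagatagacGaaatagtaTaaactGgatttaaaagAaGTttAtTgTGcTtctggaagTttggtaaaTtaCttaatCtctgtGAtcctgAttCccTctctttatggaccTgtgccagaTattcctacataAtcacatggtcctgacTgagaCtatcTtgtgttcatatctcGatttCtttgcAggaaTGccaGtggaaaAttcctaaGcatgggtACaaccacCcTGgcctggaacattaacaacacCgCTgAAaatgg
Mrgprb5: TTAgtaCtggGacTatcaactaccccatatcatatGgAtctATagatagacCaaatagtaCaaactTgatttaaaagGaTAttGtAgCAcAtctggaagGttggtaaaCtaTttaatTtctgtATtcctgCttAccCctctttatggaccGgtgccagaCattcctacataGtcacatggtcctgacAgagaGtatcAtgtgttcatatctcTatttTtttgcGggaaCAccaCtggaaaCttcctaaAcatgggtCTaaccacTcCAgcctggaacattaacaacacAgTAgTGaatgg
The windows were identical at 246 of 300 bases (82.0%), and 54 bases differed. Each annotated start coincided with an ATG. The other pairs that could be aligned, among Mrgprd, Mrgprb4, Mrgprb5 and Mrgpre, had between 44.2% and 47.2% identical columns. Because the family is a multigene cluster and no source used here says how multi-mapped reads were handled, the levels of Mrgpra3, Mrgprb4 and Mrgprb5 are uncertain to the extent that reads were shared with relatives.

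Mrgpra3 was lowest in injured Mettl14cKO ganglia. Its level was 25.9, 22.7 and 27.7 CPM in Mettl14cKO SNLD1 libraries, against 60.0, 51.8 and 49.0 CPM in Mettl14cKO naive libraries. In WT it was 54.0, 56.1 and 46.15 CPM at SNLD1, against 87.2, 64.7 and 46.14 CPM in naive ganglia. All 3 Mettl14cKO SNLD1 libraries lay below the other 9 libraries, whereas the remaining 3 groups overlapped one another. Of all genes tested, 9.37% lay below Mettl14cKO naive libraries and 10.3% below WT SNLD1 libraries with no overlap. The share below all 9 was not counted. In order of the means, WT naive ganglia were highest at 66.0 ± 20.5 CPM, followed by Mettl14cKO naive at 53.6 ± 5.73, WT SNLD1 at 52.1 ± 5.24 and Mettl14cKO SNLD1 at 25.4 ± 2.56 CPM (SD, n = 3 each). These levels rest on 146 to 903 counts per library.

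Mrgprd had lower means in Mettl14cKO than in WT and similar means with and without injury. It was 60.8, 51.9 and 58.1 CPM in Mettl14cKO SNLD1 libraries, against 52.4, 50.5 and 68.2 CPM in Mettl14cKO naive libraries. In WT it was 99.3, 56.1 and 91.6 CPM at SNLD1, against 85.9, 69.3 and 72.1 CPM in naive ganglia. The naive Mettl14cKO libraries all lay below the naive WT libraries, but the second WT SNLD1 library fell inside the Mettl14cKO range. The order of the means was WT SNLD1 (82.3 ± 23.1 CPM), WT naive (75.8 ± 8.90), Mettl14cKO naive (57.0 ± 9.69) and Mettl14cKO SNLD1 (56.9 ± 4.55), and of neighbours in this order WT naive and Mettl14cKO naive alone did not overlap.

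Mrgprb5 and Mrgpre were counted at lower depth, with 23 to 108 and 20 to 112 counts per library. Mrgprb5 was 4.61, 3.80 and 3.50 CPM in Mettl14cKO SNLD1 libraries, against 6.86, 4.01 and 4.09 CPM in Mettl14cKO naive libraries, and 7.65, 6.17 and 3.17 CPM in WT SNLD1, against 10.4, 7.49 and 6.83 CPM in WT naive libraries. Its highest group was WT naive (8.25 ± 1.91 CPM) and its lowest Mettl14cKO SNLD1 (3.97 ± 0.574 CPM), and every pair of neighbours in the order overlapped. Mrgpre was 3.55, 4.08 and 6.16 CPM in Mettl14cKO SNLD1 libraries, against 6.12, 6.97 and 5.70 CPM in Mettl14cKO naive libraries, and 8.27, 5.60 and 7.55 CPM in WT SNLD1, against 5.79, 5.17 and 8.50 CPM in WT naive libraries. All 4 Mrgpre groups overlapped their neighbours, with means from 4.595 ± 1.38 CPM in Mettl14cKO SNLD1 to 7.14 ± 1.38 CPM in WT SNLD1.

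Mrgprb4 and Mrgprf were near the limit of counting. Mrgprb4 had 6 to 28 counts per library and ranged from 0.985 to 3.36 CPM in Mettl14cKO SNLD1, from 2.27 to 2.60 CPM in Mettl14cKO naive, from 1.70 to 3.06 CPM in WT SNLD1 and from 1.44 to 2.72 CPM in WT naive libraries, so that all groups overlapped. Mrgprf had 1 to 14 counts per library and did not pass the filter on low counts, so it was left out of the RNA-seq test. Its level was 1.06, 1.69 and 0.840 CPM in Mettl14cKO SNLD1, against 0.448, 0.174 and 0.744 CPM in Mettl14cKO naive libraries. In WT it was 0.459, 0.571 and 0.487 CPM at SNLD1, against 1.16, 0.817 and 1.06 CPM in naive libraries. Mrgprf was thus higher at SNLD1 in Mettl14cKO and lower at SNLD1 in WT, in both cases with no overlap in CPM. That pattern was found in 0.113% of the genes tested and in 0.076% of the genes counted but not tested. In Mettl14cKO the lowest SNLD1 level (0.840 CPM) and the highest naive level (0.744 CPM) both came from 6 counts, so that gap rests on scaling.

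**Figure D1:**
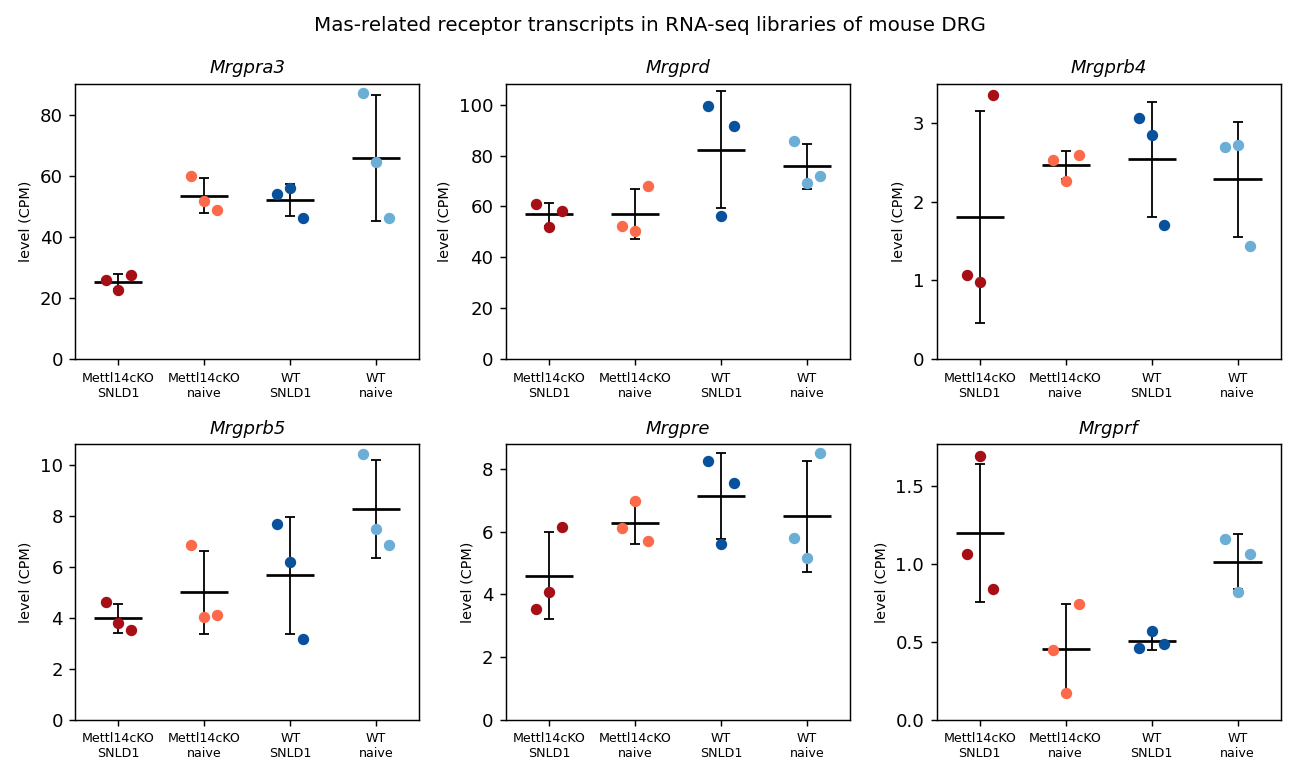
RNA-seq levels in CPM (vertical axes, scales differ between panels) of the 6 receptor genes in Mettl14cKO SNLD1, Mettl14cKO naive, WT SNLD1 and WT naive ganglia; points are libraries, horizontal lines means and bars SD (n = 3). Mrgpra3 stands at 22.7 to 27.7 CPM in Mettl14cKO SNLD1, below all other libraries.

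The effect of nerve injury was tested within each genotype on all genes that passed the filter, which kept 5 of the 6 receptors among 13291 genes. In Mettl14cKO ganglia Mrgpra3 fell to 0.475 times its naive level (log2 −1.07 ± 0.20 SE, edgeR quasi-likelihood test with Benjamini-Hochberg adjustment, adjusted p = 0.0150) and was lower in 3 of 3 libraries. It was the 1 member called, where 0.685% of all genes tested were called and 0.0602% were called lower. Of all genes tested, 9.37% were lower with no overlap between these groups. Mrgprd was close to 0 (log2 −0.0047 ± 0.20), with a sign that turned with DESeq2 size factors. Mrgprb4 (log2 −0.43 ± 0.47), Mrgprb5 (log2 −0.34 ± 0.34) and Mrgpre (log2 −0.43 ± 0.29) were below 0 without passing, with edgeR adjusted p-values of 0.789, 0.780 and 0.649. The median over the 5 tested members was −0.43, beside 0.01 over all genes. The Mrgpra3 call ended without Mettl14cKO naive library 1 (log2 −0.99, edgeR adjusted p = 0.0738), Mettl14cKO SNLD1 library 1 (log2 −1.09, adjusted p = 0.0806) or Mettl14cKO SNLD1 library 2 (log2 −0.998, adjusted p = 0.0725).

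In WT ganglia none of the 5 tested members was called after injury, where 1.02% of all genes were called. At an unadjusted p under 0.05, 976 genes and none of the members were reached, and DESeq2 called none of the members either. Mrgpra3 (log2 −0.34 ± 0.20, edgeR adjusted p = 0.817) and Mrgprb5 (log2 −0.55 ± 0.31, adjusted p = 0.813) were below 0. Mrgprd (log2 0.12 ± 0.19), Mrgprb4 (log2 0.17 ± 0.43) and Mrgpre (log2 0.12 ± 0.27) were above 0, each with a sign that turned when 1 library was left out. The median over the members was 0.12, beside −0.01 over all genes.

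The difference between the injury effects of both genotypes was tested directly. For Mrgpra3 the effect in Mettl14cKO was lower by log2 −0.73 ± 0.28 than in WT (edgeR, unadjusted p = 0.0183, adjusted p = 0.998), so a difference between genotypes in the response of Mrgpra3 to injury did not pass the correction over all genes. No gene was called in this test in the main edgeR fit, whereas 492 genes had an unadjusted p under 0.05. DESeq2 called 3 genes and no member. Over all alternatives up to 10 genes were called higher and 14 lower, with no member among them. The other tested members had differences of log2 −0.12 ± 0.28 (Mrgprd), −0.60 ± 0.64 (Mrgprb4), 0.22 ± 0.47 (Mrgprb5) and −0.55 ± 0.40 (Mrgpre). With both genotypes pooled, Mrgpra3 fell with injury (log2 −0.71 ± 0.14, edgeR adjusted p = 0.00838), 1 of 5 members where 2.56% of all genes were called. That call held without any 1 library (adjusted p at most 0.0348). Pooled values for the other 4 members lay between log2 −0.44 ± 0.23 (Mrgprb5) and log2 0.06 ± 0.14 (Mrgprd).

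**Figure D2:**
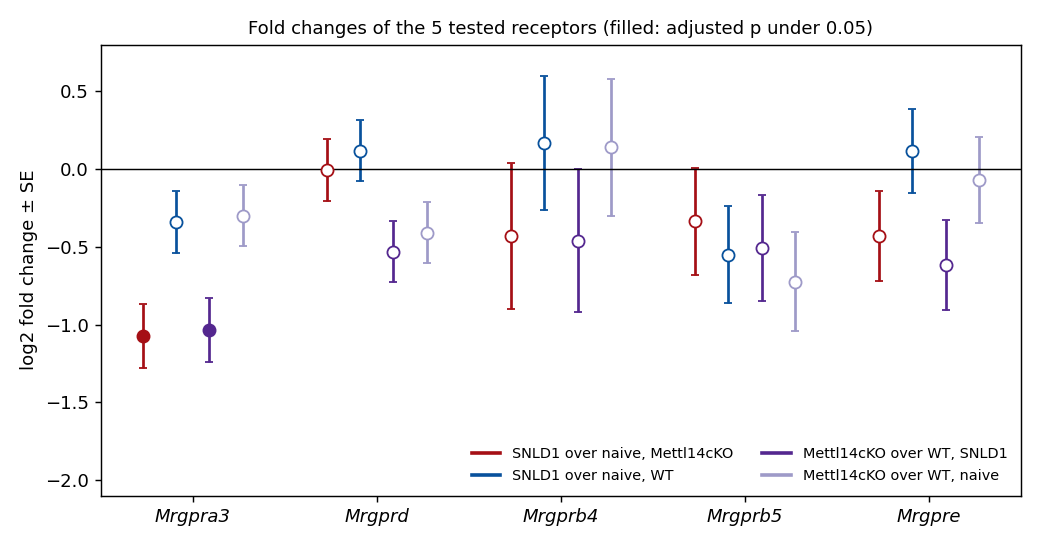
Log2 fold changes (vertical axis, ± SE from the edgeR fit) of the 5 receptor genes tested in RNA-seq, for SNLD1 over naive in Mettl14cKO and in WT and for Mettl14cKO over WT at SNLD1 and in naive ganglia. Filled points have an adjusted p under 0.05, which held for Mrgpra3 after injury in Mettl14cKO (log2 −1.07) and between genotypes at SNLD1 (log2 −1.03).

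The effect of the Mettl14 genotype was tested in each condition, with libraries that the injury comparisons also use. At SNLD1 Mrgpra3 fell to 0.488 times its WT level in Mettl14cKO (log2 −1.03 ± 0.20, edgeR adjusted p = 0.0174), in 3 of 3 libraries. It was the 1 member called of 5, where 1.46% of all genes were called and 0.512% were called lower, and 10.3% were lower with no overlap. Mrgprd (log2 −0.53 ± 0.20, edgeR adjusted p = 0.207), Mrgpre (log2 −0.62 ± 0.29, adjusted p = 0.335), Mrgprb5 (log2 −0.51 ± 0.34, adjusted p = 0.530) and Mrgprb4 (log2 −0.46 ± 0.46, adjusted p = 0.704) were below 0 without passing. The median over the 5 members was −0.53, beside 0.00 over all genes. The Mrgpra3 call ended without Mettl14cKO SNLD1 library 1 (log2 −1.05, adjusted p = 0.0868), Mettl14cKO SNLD1 library 2 (log2 −0.96, adjusted p = 0.0717) or WT SNLD1 library 1 (log2 −1.01, adjusted p = 0.0569). It also ended when libraries were scaled to their pan-neuronal counts (log2 −0.86, edgeR adjusted p = 0.0538), a scaling that moved the median of all genes by 0.19.

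In naive ganglia none of the 5 tested members was called between genotypes, where 0.286% of all genes were called. Mrgprb5 (log2 −0.72 ± 0.32, edgeR adjusted p = 0.625) was the member of smallest unadjusted p, and 1010 of all genes had an unadjusted p under 0.05. DESeq2 called no member. Mrgprd was lower with no overlap (log2 −0.41 ± 0.20, edgeR adjusted p = 0.664), as were 4.65% of all genes. Mrgpra3 (log2 −0.30 ± 0.20) and Mrgpre (log2 −0.07 ± 0.28) were below 0 and Mrgprb4 (log2 0.14 ± 0.44) above 0, and for Mrgpre the sign turned with pan-neuronal scaling (log2 0.18), which moved the median of all genes by 0.24. With both conditions pooled, Mrgpra3 fell in Mettl14cKO (log2 −0.67 ± 0.14, edgeR adjusted p = 0.0129), 1 of 5 members where 3.33% of all genes were called, and this held without any 1 library (adjusted p at most 0.0426). Mrgprd (log2 −0.47 ± 0.14) missed the threshold with an edgeR adjusted p of 0.0760 and passed with DESeq2 (log2 −0.48, adjusted p = 0.0316), without the filter (log2 −0.48, edgeR adjusted p = 0.0129) and without WT SNLD1 library 2 (log2 −0.58, adjusted p = 0.0124). With pan-neuronal scaling, which moved the median of all genes by 0.22, neither passed, and Mrgpra3 had log2 −0.45 (edgeR adjusted p = 0.0744).

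Values within a library do not depend on its scaling. The ratio of Mrgpra3 to Mrgprd counts, used to compare libraries and not the abundance of both genes, was 0.426, 0.436 and 0.477 in Mettl14cKO SNLD1, against 1.15, 1.02 and 0.718 in Mettl14cKO naive libraries. In WT it was 0.544, 1 and 0.504 at SNLD1, against 1.01, 0.933 and 0.640 in naive libraries. All 3 Mettl14cKO SNLD1 ratios were below the other 9, while both WT groups overlapped. How often ratios of other genes show this pattern was not counted. Of the summed counts of the 6 receptors, Mrgpra3 took 27.0 ± 0.670% in Mettl14cKO SNLD1 against 43.0 ± 4.81% in Mettl14cKO naive libraries, and 35.3 ± 7.56% in WT SNLD1 against 40.7 ± 5.97% in WT naive libraries (SD, n = 3 each). Per 10000 counts of pan-neuronal markers, Mrgpra3 had 17.8, 16.7 and 17.7 counts in Mettl14cKO SNLD1, against 31.9, 36.7 and 26.0 in WT SNLD1 libraries, again with no overlap. In whole ganglia, fewer cells that express a receptor and less RNA of it per cell cannot be told apart.

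**Figure D3:**
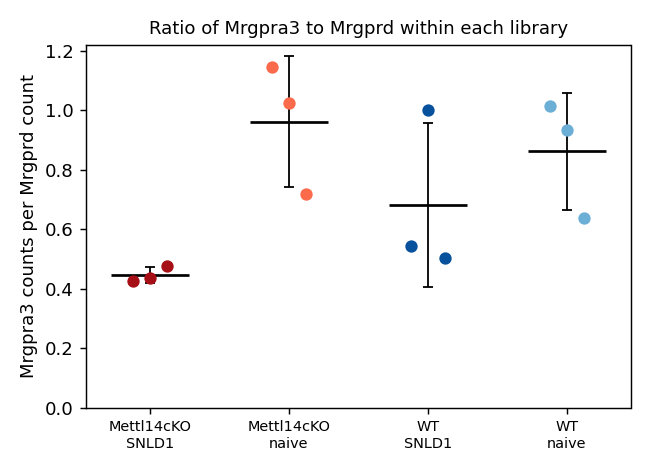
Mrgpra3 counts per Mrgprd count (vertical axis) in each RNA-seq library, by group; points are libraries, lines means and bars SD (n = 3). The Mettl14cKO SNLD1 ratios lie between 0.426 and 0.477, below the 9 other libraries.

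The other Mas-related genes and the genes that share these neurons were described from lists. Of 14 other Mas-related genes 6 passed the filter. None was called at SNLD1 between genotypes, where Mrgpra2b (log2 −1.33 ± 0.35, edgeR adjusted p = 0.0602) and Mrgpra2a (log2 −1.04 ± 0.36, adjusted p = 0.174) had the smallest p-values. Mrgpra2b was 4.43, 6.19 and 6.58 CPM in Mettl14cKO SNLD1, against 16.5, 16.4 and 10.8 CPM in WT SNLD1 libraries, with no overlap, and it passed with DESeq2 (adjusted p = 0.0103), with the compared groups alone in the fit (edgeR adjusted p = 0.0336) and without the filter on low counts (0.000114). In naive ganglia the same 2 genes led (log2 −0.81 ± 0.33 and −0.67 ± 0.33) without passing, although Mrgpra2b passed without Mettl14cKO naive library 1 (log2 −1.53, edgeR adjusted p = 0.0169). After injury Mrgpra2a led in both genotypes (log2 −0.77 ± 0.37 in Mettl14cKO and −0.41 ± 0.32 in WT), followed by Mrgpra2b in Mettl14cKO (log2 −0.67 ± 0.35) and Mrgpra9 in WT (log2 0.30 ± 0.31), none of them called. Without Mettl14cKO naive library 1, Mrgpra2b was at log2 0.037 after injury. Mrgpra2a and Mrgpra2b are close relatives, so the split of reads between them is uncertain.

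Nonpeptidergic nociceptor genes, the class that Mrgprd marks, were lower in Mettl14cKO than in WT at SNLD1 for 3 of 20 tested genes and higher for none, where 1.46% of all genes were called and 0.512% called lower. They included the GDNF co-receptor Gfra1 (log2 −0.89 ± 0.18, edgeR adjusted p = 0.0199) and the sodium channel gene Scn10a (log2 −0.64 ± 0.16, adjusted p = 0.0479). The list's median was −0.38, beside 0.00 over all genes. The Gfra1 and Scn10a calls ended without Mettl14cKO SNLD1 library 1 (edgeR adjusted p = 0.107 for Gfra1 and 0.231 for Scn10a), Mettl14cKO SNLD1 library 2 (0.0840 and 0.113) or WT SNLD1 library 3 (0.132 and 0.158). The Scn10a call also ended without WT SNLD1 library 1 (0.173) or Mettl14cKO SNLD1 library 3 (0.0837), with pan-neuronal scaling (0.193) and with the compared groups alone in the fit (0.0747). In naive ganglia none of the 20 was called, and Gfra1 was at log2 −0.31 ± 0.18. After injury Gfra1 rose in WT (log2 0.97 ± 0.18, edgeR adjusted p = 0.00937, and 0.0929 without WT SNLD1 library 3 or 0.0752 without WT naive library 1). None was called after injury in Mettl14cKO, where Prkcq, which encodes a protein kinase C, was at log2 −0.72 ± 0.22. Prkcq passed without Mettl14cKO SNLD1 library 3 (log2 −1.07, edgeR adjusted p = 0.0187).

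Of 19 tested itch genes, which include cytokine and amine receptors of pruriceptive neurons, none was called lower in any of these 4 comparisons. Between genotypes at SNLD1 none was called in either direction, and the median was 0.05. The smallest p-values there belonged to the leukotriene receptor Cysltr2 (log2 0.59 ± 0.27) and the lysophosphatidic acid receptor Lpar3 (log2 −0.55 ± 0.29). In naive ganglia they belonged to the serotonin receptor Htr7 (log2 0.46 ± 0.24) and the oncostatin M receptor Osmr (log2 0.41 ± 0.24), with none called. After injury the interleukin receptor gene Il13ra1 rose in WT (log2 0.87 ± 0.19, edgeR adjusted p = 0.0314), 1 of 19, a call that ended without WT naive library 1 (adjusted p = 0.175) or 3 (0.178), WT SNLD1 library 1 (0.103) or 2 (0.139), with pan-neuronal scaling (0.0570) and with the compared groups alone in the fit (0.105). In Mettl14cKO Il13ra1 (log2 0.65 ± 0.19, adjusted p = 0.167) and Il4ra, which encodes a subunit of the interleukin-4 receptor, (log2 0.84 ± 0.29, adjusted p = 0.240) did not pass.

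Markers of other cells moved with genotype beside Mrgpra3. Between genotypes at SNLD1, 0.948% of all genes tested were called higher and 0.512% lower. Single genes lay higher with no overlap for 9.66% and lower for 10.3%, and such shares for summed lists were not computed. Summed fibroblast markers were 5119 to 10591 CPM in Mettl14cKO SNLD1 against 3322 to 4046 CPM in WT SNLD1 libraries, and 4 of 9 (Dcn, Pdgfra, Apod and Mgp) were called higher. The fibroblast list was not uniform, with 5 genes above 0, 4 below 0 and a median of 0.09. Dcn (3002, 3948 and 2367 CPM in Mettl14cKO SNLD1 against 1472, 1836 and 1461 CPM in WT SNLD1) and Apod (4069, 6262 and 2429 against 1739, 1828 and 1579 CPM) gave most of the sum, whereas the collagen gene Col3a1 had 17.7, 11.96 and 15.1 CPM in Mettl14cKO SNLD1 against 19.6, 41.6 and 24.5 CPM in WT SNLD1 libraries. In naive ganglia summed fibroblast markers were 4363 to 6440 CPM in Mettl14cKO against 3368 to 3762 CPM in WT libraries, with none of 9 called. These sums did not overlap either, whereas Mrgpra3 overlapped between genotypes in naive ganglia. Summed satellite glia markers were 2548 to 2704 CPM in Mettl14cKO SNLD1 against 3017 to 4330 CPM in WT SNLD1 libraries, without overlap, with none of 9 called. Of 9 macrophage markers 1 (Cd163) was called higher, and the summed levels were 76.0 to 161 CPM in Mettl14cKO SNLD1 against 86.2 to 97.8 CPM in WT SNLD1 libraries. None of 9 Schwann cell, 10 peptidergic and 6 C-fibre mechanoreceptor genes tested was called, with medians of −0.23, −0.11 and 0.10. Summed pan-neuronal markers were 13587 to 15701 CPM in Mettl14cKO SNLD1 against 15286 to 17779 CPM in WT SNLD1 libraries, with 1 of 19 (Nefh) called lower. In naive ganglia they were 12954 to 15397 CPM in Mettl14cKO against 16535 to 17215 CPM in WT libraries, without overlap. There 1 of 19 (Nefh) was called lower, beside 0.113% of all genes. With both conditions pooled, 4 of 19 (Nefl, Nefm, Nefh and Elavl4) were called lower, beside 1.29% of all genes. At SNLD1, of 11 tested mast cell markers 2 (Tpsab1 and Fcer1a) were higher, and of 10 tested mural cell markers 1 (Tagln). After injury in Mettl14cKO the mural list had a median of 0.37 with none of 10 called, and its summed level was 199 to 262 CPM at SNLD1 against 202 to 225 CPM in naive libraries. In WT its summed level was 184 to 301 CPM at SNLD1 against 150 to 269 CPM in naive libraries, with overlap in both genotypes. The part of these markers in the receptor results was not tested.

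Likeness of profile was measured over the 12 RNA-seq libraries as the root mean square difference of centred log2 CPM, among 9554 genes that averaged 5 CPM or more. Closest to Mrgpra3 were Pclo (0.236), a protein of the presynaptic active zone, Cdh11 (0.238), Rab14 (0.246) and Enox2 (0.256), where the median gene had 0.604. Closest to Mrgprd were Ubr4 (0.129), Tmod1 (0.130), Pdia3 (0.137) and Scg3 (0.150), with a median of 0.403. For Mrgprb5 they were Tmem107 (0.256), Spats2l (0.279), Cbx3 (0.281) and Nipa1 (0.284), and for Mrgpre they included Fem1a (0.127), Zcchc4 (0.169) and Galnt2 (0.179). Between members the difference was smallest for Mrgprd and Mrgpre (0.330) and largest for Mrgprb5 and Mrgpre (0.538). Mrgpra3 was closer to Mrgprb5 (0.394) than to Mrgprd (0.509). These values share 1 set of libraries and were not tested.

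MeRIP-seq set the pulled-down fraction against the input of WT ganglia, so enrichment is relative to the other genes of a library. Mrgprd was 270, 149 and 127 CPM in IP against 101 and 94.99 CPM in input at SNLD1, and 286, 213 and 107 CPM in IP against 145 and 144 CPM in input in naive ganglia. At SNLD1 every IP library lay above both inputs, as for 10.3% of all genes, whereas in naive ganglia the third IP library lay below both inputs. Mrgpra3 was 67.0, 105 and 40.4 CPM in IP against 34.5 and 21.6 CPM in input at SNLD1, and 75.6, 114 and 55.8 CPM in IP against 51.0 and 121 CPM in input in naive ganglia. Its IP libraries were above the inputs with no overlap at SNLD1 and overlapped them in naive ganglia.

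In the main edgeR fit no gene was called in any MeRIP-seq comparison, that is 0% of 14705 tested, all 6 members included. In that fit unadjusted p-values under 0.05 were reached by 608 genes for IP over input at SNLD1 and by 915 genes in naive ganglia. DESeq2 called 0 genes and 5 genes, none of them a member. Other alternative fits called up to 892 genes lower and 44 higher at SNLD1, and 1030 and 48 in naive ganglia, again no member. For Mrgprd IP over input was log2 0.89 ± 0.77 at SNLD1 and 0.49 ± 0.76 in naive ganglia. For Mrgpra3 it was log2 1.35 ± 0.81 at SNLD1 and −0.07 ± 0.77 in naive ganglia, the second with a sign that turned with DESeq2 (log2 0.02). The change of this enrichment with injury was log2 1.42 ± 1.10 for Mrgpra3 and 0.41 ± 1.06 for Mrgprd, with edgeR unadjusted p-values of 0.214 and 0.706. With standard errors of this size, such changes were not detectable in this fit. A fit that paired same-numbered libraries within each fraction, chosen after seeing the data, had smaller errors. It gave log2 1.34 ± 0.64 for Mrgpra3 (edgeR, unadjusted p = 0.0588) and 0.45 ± 0.46 for Mrgprd. In that fit 119 genes had an unadjusted p under 0.05. Neither fit called a gene for this change.

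Mrgprb5 had lower levels in the pulldown than in the input. It was 1.15, 0 and 1.71 CPM in IP against 8.32 and 6.56 CPM in input at SNLD1, and 1.40, 1.88 and 4.32 CPM in IP against 18.3 and 16.3 CPM in input in naive ganglia. Every IP library lay below both inputs in both conditions, as for 12.1% of all genes at SNLD1 and 16.5% in naive ganglia. These levels rest on few counts, 7, 0 and 15 in IP against 7 and 107 in input at SNLD1. In naive ganglia the counts were 18, 2 and 19 in IP against 142 and 161 in input. The fitted difference was log2 −2.76 ± 1.17 at SNLD1 (edgeR, unadjusted p = 0.0307, adjusted p = 0.791) and log2 −2.74 ± 1.14 in naive ganglia (unadjusted p = 0.0280, adjusted p = 0.710), which did not pass. The count of 0 in the second SNLD1 IP library allows up to 1.95 CPM before scaling.

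Mrgpre was 22.9, 86.5 and 14.8 CPM in IP against 15.4 and 17.7 CPM in input at SNLD1, and 35.4, 31.1 and 10.01 CPM in IP against 23.7 and 4.25 CPM in input in naive ganglia. Its groups overlapped in both conditions, with log2 1.31 ± 1.05 at SNLD1 and 0.87 ± 1.02 in naive ganglia. Mrgprb4 was 3.95, 1.13 and 0.798 CPM in IP against 17.8 and 0.797 CPM in input at SNLD1, and 2.65, 0 and 0 CPM in IP against 15.3 and 0 CPM in input in naive ganglia. Its input counts were 15 and 13 at SNLD1, in libraries of unequal depth, against 119 and 0 in naive ganglia, and no fold is given. Mrgprf was 1.65, 0 and 2.16 CPM in IP against 1.19 and 2.51 CPM in input at SNLD1, and 1.95, 0 and 1.37 CPM in IP against 0 and 0.303 CPM in input in naive ganglia. The counts of 0 for Mrgprb4 and Mrgprf allow between 0.244 and 3.54 CPM before scaling.

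The input libraries gave a view of injury in WT that does not use the RNA-seq libraries. Mrgpra3 was 34.5 and 21.6 CPM at SNLD1 against 51.0 and 121 CPM in naive input, Mrgprd was 101 and 94.99 against 145 and 144 CPM, and Mrgprb5 was 8.32 and 6.56 against 18.3 and 16.3 CPM. These 3 members were lower at SNLD1 with no overlap, as were 13.8% of all genes, and Mrgprf was higher with no overlap, as were 6.17%, whereas its WT RNA-seq level was lower at SNLD1. None passed (log2 −1.63 ± 0.87 for Mrgpra3, −0.56 ± 0.83 for Mrgprd and −1.23 ± 1.25 for Mrgprb5, edgeR adjusted p = 1). No gene was called in the main edgeR fit, with 126 at an unadjusted p under 0.05, and DESeq2 called 1, which was no member. Within IP libraries no member was called and all 6 overlapped between conditions. Same-numbered libraries of a fraction deviated together, with correlations of 0.753, 0.549 and 0.807 for the IP pairs and 0.454 for the input pairs. Within these pairs Mrgpra3 and Mrgprb5 were lower at SNLD1 in 3 of 3 IP and 2 of 2 input pairs. Mrgprb4, at few counts, was higher at SNLD1 in 3 of 3 IP and 2 of 2 input pairs. Mrgprd, Mrgpre and Mrgprf did not move in 1 direction across the IP pairs. The share of all genes with such pairs was not computed. With the number as a block within each fraction, an alternative chosen after seeing the data, Mrgpra3 was at log2 −0.25 ± 0.39 in IP (edgeR adjusted p = 0.982) and −1.59 ± 0.52 in input (unadjusted p = 0.00979, adjusted p = 0.941), and Mrgprb5 at −1.19 ± 0.87 and −1.23 ± 0.88 (adjusted p = 0.978 and 0.941). That fit called 6 genes in IP and 1 in input, none of them a member. Within IP libraries and without the block, DESeq2 called 8 genes, none of them a member, and edgeR had 124 at an unadjusted p under 0.05.

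**Figure D4:**
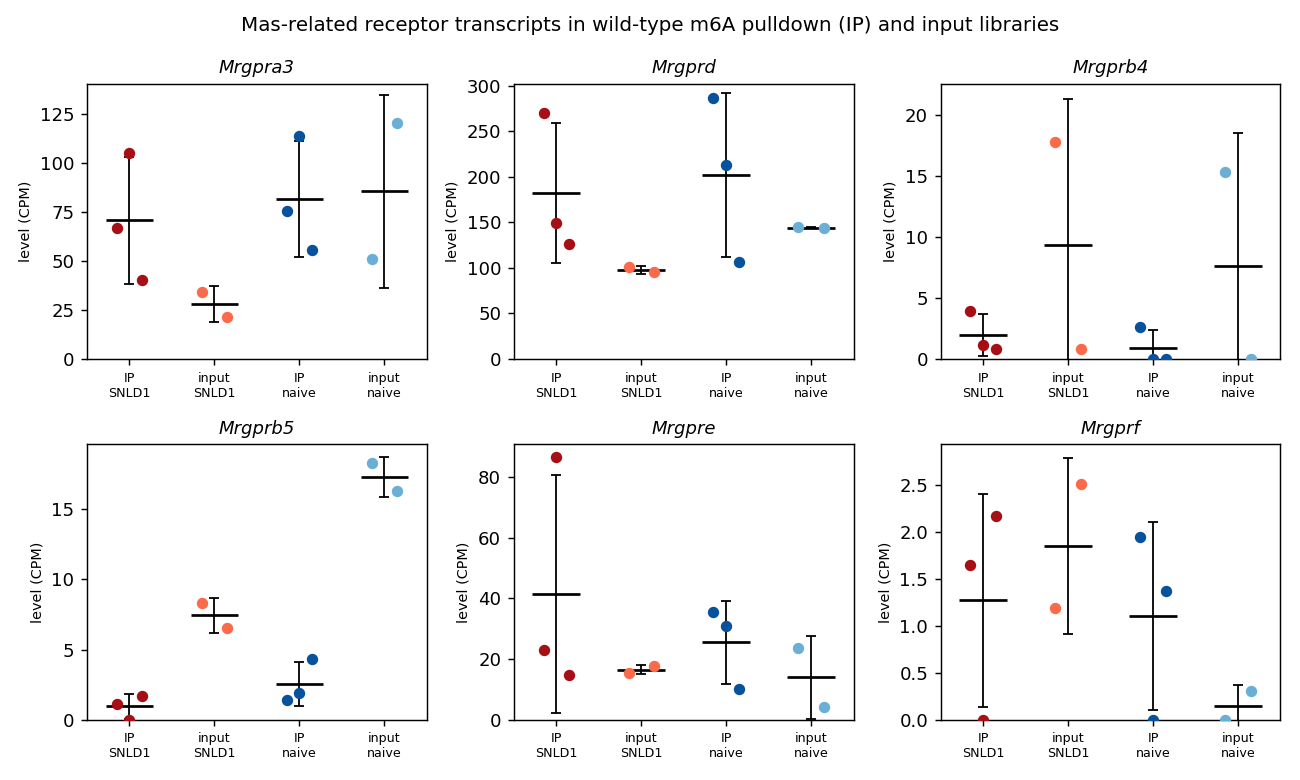
MeRIP-seq levels in CPM (vertical axes, scales differ between panels) of the 6 receptor genes in WT ganglia, for IP at SNLD1, input at SNLD1, naive IP and naive input; points are libraries, lines means and bars SD (n = 3 for IP and 2 for input), with bars ending at 0 where the SD exceeds the mean. Mrgprb5 lies between 0 and 4.32 CPM in IP and between 6.56 and 18.3 CPM in input.

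The miCLIP lists named 16 positions in 3 of the 6 genes, 11 sites in the SNL list of 18677 and 9 in the naive list of 14446, with 4 in both. Each condition had 1 library, so the lists were compared without a test. In miCLIP a methylated adenosine is found by mutations that the bound antibody leaves in the reads, and a site's mutated share is mutated reads over reads at the base. Of all genes in the table used, 22.3% held a site of the SNL list and 19.4% a site of the naive list within their span, on either strand. Mrgpra3, Mrgprb4 and Mrgprb5 held no listed site, and as the lists name only sites past the authors' caller, this sets no limit on their methylation. The spans of Mrgprb4 and Mrgprb5 are also short, at 966 and 969 bases, and begin at an ATG. Sites outside a span were not counted.

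Mrgprd, on the plus strand, held 5 SNL and 7 naive sites, 3 of them shared. Among genes with a site, 22.4% had as many or more in the SNL list and 11.4% in the naive list. These shares count sites on either strand of a span and take no account of span length or RNA level. The 3 shared positions are shown as 5 bases around the methylated adenosine, which is in capitals, because they are the sites seen in both conditions.
Position 145315212: aaAca
Position 145321452: ggAcc
Position 145321608: tgAct
The position at 145321452 had 2 mutated of 8 reads in SNL (25.0%, exact 95% interval 3.19 to 65.1%) against 1 of 5 reads in naive ganglia (20%, 0.505 to 71.6%). The position at 145321608 had 1 of 5 reads in SNL against 1 of 4 in naive ganglia, and the position at 145315212 had 1 of 6 reads in both. The intervals, which cover counting error only, overlapped. Of the members' sites, the 1 with at least 3 mutated reads lay at 145321433 in the SNL list alone, with 3 of 9 reads (33.3%, 7.49 to 70.1%) and the context tgAcc. A cluster of 4 positions lay within 6598 to 6773 bases of the span's start, and 3 further naive sites lay from 6913 to 8857 bases.

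Mrgpre, on the minus strand, held 4 SNL and 2 naive sites, of which 143780840 (tgAct) was shared with 1 of 8 reads mutated in both lists. The other SNL sites lay at 143780931 (gaAcc), 143781194 (tgAcc) and 143781359 (tgAcc), and the other naive site at 143780612 (ggAcc), each with 1 mutated of 2 or 3 reads. Its 5 positions fell between 3141 and 3888 bases from the start of a span of 6138 bases. Mrgprf held 2 SNL sites, 145308854 (taAca) and 145309270 (ggAcc), each with 1 of 2 reads, and no naive site. Both were on the plus strand. The table used gives gene spans only, so whether a site is in an exon or a UTR was not analysed here.

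Over the 16 positions, 12 had G before the methylated adenosine and 8 the letters TGAC. In the full lists G came before it at 82.7% of SNL and 83.5% of naive sites and the letters were TGAC at 20.7% and 21.2%. Of the 20 entries of members, 18 rested on 1 mutated read, as did 89.7% of all SNL and 90.2% of all naive sites, and reads over the base ranged from 2 to 9, beside a median of 4 in both lists. The 4 shared positions were 4 of 11 SNL and 4 of 9 naive sites of the members, where 20.5% of the SNL list and 26.5% of the naive list were shared.

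**Figure D5:**
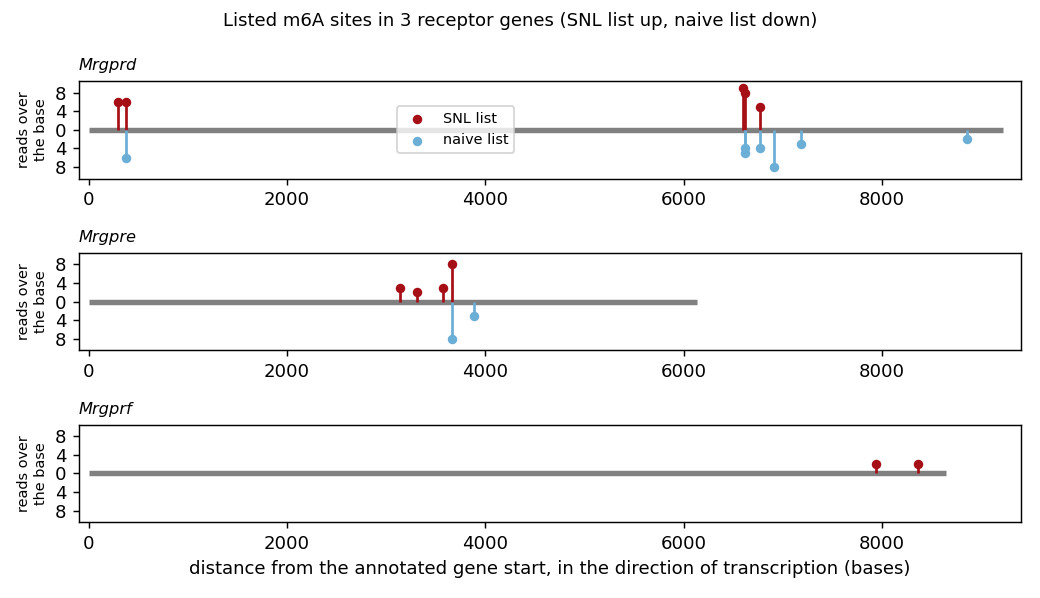
Listed m6A sites in Mrgprd, Mrgpre and Mrgprf by distance from the annotated gene start in bases (horizontal axes; for Mrgprf, whose strand is not in the table used, from the lower coordinate), with reads over the base (vertical axes) drawn upwards for the SNL list and downwards for the naive list; grey bars are gene spans. Mrgprd has 5 SNL and 7 naive sites, Mrgpre 4 and 2, and Mrgprf 2 and 0.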

How the data were processed

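RNA-seq and MeRIP-seq values were counts per gene symbol, unnormalised as deposited by the authors. The miCLIP lists hold a value of unit other that the authors deposited as a score and that equals mutated reads over reads at the base. The submitters' processing notes name Trimmomatic, STAR, DESeq2 and mm10; no source used here gives their roles, the counter or the site caller. From the counts, TMM-scaled CPM and quasi-likelihood tests were computed over all genes with edgeR 4.0.16 in R 4.3.3, after filterByExpr (13291 RNA-seq and 14705 MeRIP-seq genes kept), with 4 group means for 12 RNA-seq and for 10 MeRIP-seq libraries and Benjamini-Hochberg adjustment, called under 0.05. DESeq2 1.42.0 was an alternative. The edgeR test was also run on simulated counts for injury in Mettl14cKO, the difference of injury effects and naive IP over input. Only well-counted genes were changed and libraries were drawn independently. That run therefore does not cover members at few counts or libraries that deviate together, and its outcome is not reported here. The members and lists were chosen with earlier results of these data known. Members are named throughout; of the other Mas-related, itch and nonpeptidergic lists, up to 4 called genes of smallest p, otherwise the 2 of smallest p; marker lists are given by counts, with called genes. Some genes that this rule selects are not reported here. In MeRIP-seq, the 3 IP pairs of equal number deviated together by over 0.1, so the numbers were taken to pair IP libraries across conditions, from the data and not from the labels. Windows were aligned with Biopython 1.88; sequences came from RefSeq (GRCm38.p6), whose table matched 23204 of 24421 symbols. Intervals are exact Clopper-Pearson at 95%.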

Additional observations from a re-analysis of the deposited data

Results flagged for a closer look

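Mrgprf was marked because its level moved in opposite directions with injury in the genotypes, with no overlap in either. SNLD1 minus naive was 0.742 CPM in Mettl14cKO and −0.507 CPM in WT, from 6, 12 and 6 counts at SNLD1 against 3, 1 and 6 in naive Mettl14cKO libraries, and 3, 5 and 4 counts at SNLD1 against 12, 6 and 14 in naive WT libraries. In Mettl14cKO the lowest SNLD1 and the highest naive level both came from 6 counts, so the lack of overlap there rests on scaling. Opposite directions with no overlap were present in 0.113% of the 13291 genes tested and in 0.076% of the 7893 genes counted but not tested. The difference was not tested with the filter on low counts. Without the filter, the difference of injury effects was log2 2.29 ± 0.98 (edgeR, unadjusted p = 0.0189, adjusted p = 0.9999) over 21184 genes, which did not pass.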

How the results depend on the processing

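The direction of the Mrgpra3 fold changes in RNA-seq was the same under every alternative run. Members called after injury in Mettl14cKO numbered 0 to 1 without 1 library, between genotypes at SNLD1 0 to 1, and in the pooled genotype comparison 1 to 2. Pan-neuronal scaling left 0 members called at SNLD1 and 0 in the pooled genotype comparison. In the pooled genotype comparison 2 members, Mrgpra3 and Mrgprd, were called with DESeq2, with no filter, with the replicate block (Mrgprd log2 −0.46, edgeR adjusted p = 0.0391) and with the Y-linked share as covariate (log2 −0.55, adjusted p = 0.0403). The covariate, leaving out both IP libraries numbered 3 and leaving out the 3 MeRIP-seq libraries with the lowest totals were chosen after seeing the data. Same-numbered RNA-seq libraries deviated together by over 0.1 in 9 of 18 pairs, so the numbers were not taken to pair RNA-seq samples, although 6 of 12 RNA-seq libraries correlated best with their own number, as did 10 of 10 MeRIP-seq libraries. With the number as a block within MeRIP-seq fractions, added after seeing the data, 0 members were called.

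Reversed directions were mostly those of members near 0, and also Mrgpra2b and Mrgpra9, which are no members. Mrgprd after injury in Mettl14cKO was log2 0.0035 with DESeq2 and with size factors, 0.00042 with the Y-linked covariate, and −0.073 to 0.13 without 1 library. With pan-neuronal scaling Mrgpre was 0.18 between genotypes in naive ganglia and Mrgprb4 0.036 pooled. Mrgpra3 in naive IP over input was 0.017 with DESeq2, 0.018 with size factors, 0.25 with the replicate block and 0.14 without both IP libraries numbered 3, and −0.56 to 0.67 without 1 library. Without 1 library, values after injury in WT ranged from −0.015 to 0.36 for Mrgpre, −0.11 to 0.38 for Mrgprb4, −0.040 to 0.33 for Mrgprd and −0.12 to 0.51 for Mrgpra9. Mrgpra2b after injury in Mettl14cKO ranged from −0.99 to 0.037. Between genotypes in naive ganglia Mrgprb4 ranged from −0.14 to 0.29 and Mrgpre from −0.20 to 0.18. The difference of injury effects ranged from −0.34 to 0.035 for Mrgprd and −0.059 to 0.52 for Mrgprb5, and pooled injury from −0.55 to 0.023 for Mrgprb4 and −0.022 to 0.16 for Mrgprd. The cause was not tested.

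Counts over all genes moved by more than 1.5 times. Over all alternatives, genes called lower numbered 0 to 51 after injury in Mettl14cKO, 1 to 24 after injury in WT, 9 to 236 between genotypes at SNLD1, 2 to 84 in naive ganglia, 17 to 135 for pooled injury and 54 to 367 for pooled genotype. Genes called higher numbered 48 to 230, 60 to 232, 28 to 334, 9 to 107, 193 to 425 and 154 to 1168 in the same order. In MeRIP-seq up to 1030 genes were called lower and 48 higher in naive IP over input, and 892 and 44 at SNLD1, with no member among them. These highest counts came from neither the main fit, DESeq2 nor leaving out 1 library. With at least 3 mutated reads the members kept 1 SNL site and 0 naive sites. Depth limits Mrgprb4, Mrgprf, Mrgprb5 in MeRIP-seq and every miCLIP share.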
